A study of Mus musculus with 24 samples.

Results

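Aminoacyl-tRNA synthetases are the enzymes that join each amino acid to its tRNA. Their genes were examined in mouse embryonic fibroblasts (MEFs) treated with torin1, an inhibitor of the kinase MTOR, or with MK-8722, an activator of the kinase AMPK. Members were found by their gene symbols: a 1-letter amino acid code followed by "ars", with or without a final number, together with *Eprs*, *Farsa*, *Farsb* and *Tarsl2*. The rule matched 38 of 55487 genes in the table. Of these, 17 encode mitochondrial enzymes (symbols ending in 2, other than *Tarsl2*) and 21 encode cytosolic ones. The rule itself uses no measured value, although it was set with earlier results of these data known, and all 38 passed the filter on low counts, which left 15401 genes for testing.

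The 24 libraries form 6 groups of 4. WT and *tfeb tfe3* DKO MEFs, the latter lacking the transcription factors TFEB and TFE3, were each given the vehicle DMSO, torin1 or MK-8722. The 4 libraries of a group differ by passage of the culture (7, 8, 9 and 11 for WT, and 8, 9, 10 and 11 for DKO). Both genotypes were single MEF lines supplied by another laboratory, so genotype and line cannot be told apart, and p-values measure the spread between passages of a line. Doses and treatment times are not in the sample labels and are left out. Totals ran from 24668870 to 33332507 counts per library (median 27988313.5). The RIN value, which grades RNA integrity, was 7.9 in DKO MK-8722 replicate 3 and 9.7 to 9.9 in all other libraries. The 7 fibroblast markers examined summed to 4244 to 7582 CPM (counts per 1000000 after scaling), and each was over 1 CPM in the mean of all libraries. Single markers differed between the lines. Under DMSO, 2 were called higher and 2 lower in DKO, against 23.5% and 24.6% of all genes. Their log2 differences ran from -9.47 to 2.30, so the sum hides a marker far lower in DKO. Markers of epithelial cells summed to at most 2.65 CPM, and of endothelial cells to at most 1.31 CPM. The summed level of 4 macrophage markers differed between treatments. In WT their summed CPM ran from 1.87 to 2.46 under DMSO, from 4.31 to 6.59 under torin1 and from 10.7 to 14.6 under MK-8722, and the DKO ranges were 4.40 to 6.38, 4.92 to 8.77 and 8.29 to 11.7. Only *Cd68*, which encodes a lysosomal protein, was over 1 CPM, and it was called higher with both drugs in both lines. *Adgre1* was at 0 in all 24 libraries, *Ptprc* reached at most 0.19 CPM and *Csf1r* 0.65 CPM. *Tfeb* was at 20.9 to 24.97 CPM in WT and 1.95 to 2.65 CPM in DKO with DMSO. *Tfe3* was at 119 to 122 CPM in WT and 121 to 126 CPM in DKO, so gene counts check the label for *Tfeb* alone. In bulk RNA, less transcript per cell and fewer cells holding it cannot be told apart, and a CPM is a share of the library.

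In mammalian cells, cytosolic and mitochondrial translation use separate synthetases, and most amino acids have 1 gene for each compartment. *Gars* (glycine) and *Kars* (lysine) each serve both compartments from a single gene. *Qars* (glutamine) has no mitochondrial counterpart, because mitochondria charge the glutamine tRNA with glutamate through *Ears2* and then convert it with the amidotransferase encoded by *Gatb*, *Gatc* and *Qrsl1*. *Eprs* encodes a single cytosolic protein that handles glutamate and proline, whereas mitochondria use *Ears2* and *Pars2*. *Farsa* and *Farsb* encode the 2 subunits of the cytosolic phenylalanine enzyme, and *Fars2* the mitochondrial one. A group of the cytosolic enzymes is held in the multisynthetase complex on the scaffold proteins encoded by *Aimp1*, *Aimp2* and *Eef1e1*. Genes of cytosolic synthetases are known targets of ATF4, a transcription factor whose translation MTOR complex 1 promotes and which acts with C/EBP partners at composite sites.

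Promoter sequence of 250 bases before and 50 after the start was at hand in RefSeq for 28 of the 38 members (14 of each class, build GRCm38.p6). Both strands were searched for TGATGNAA, the form of the C/EBP-ATF composite site. It was found in 5 of the 28, namely *Aars*, *Gars*, *Iars*, *Tars* and *Yars*, all cytosolic, and in 3.97% of all 32851 promoters. The strict form TGATGCAA, which is contained in it, was found in 4 (all of these but *Gars*), against 0.895% of all promoters. The E-box CACGTG was found in 5 (*Aars*, *Ears2*, *Farsb*, *Iars* and *Tars*), against 7.15%, and the longer GTCACGTG, the form bound by TFEB and its relatives, in 1 (*Aars*), against 2.25%. Members are counted by gene, with a match in any promoter of the gene, whereas the shares are over 32851 promoters of 27025 genes. Of the cytosolic genes lowered by torin1 in WT, 10 had a promoter at hand, and the 5 genes with TGATGNAA are among these 10. The matches of *Yars*, *Tars*, *Gars* and *Iars* are shown here as examples, and lowered genes without a match are not shown. Whether the motif goes with the change was not tested. Each window is written so that the match, in capitals, reads in the direction of the motif, which is the strand of the gene for *Yars* and the opposite strand for the others. Counted along the strand of the gene, the first base of the match lay 4 bases after the start in *Yars*, 15 before it in *Tars*, 30 before it in *Gars* and 8 after it in *Iars*. For *Tars*, *Gars* and *Iars* this is the last base of the match as written here.
Yars: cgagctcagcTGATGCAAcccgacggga
Tars: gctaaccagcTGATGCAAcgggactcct
Gars: gcccggtgcaTGATGAAAtagcgcagcc
Iars: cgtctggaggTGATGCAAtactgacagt
The 150 bases before the start are given on the strand of the gene for *Tars* and *Gars* and for *Yars2* and *Vars2*, mitochondrial genes of which the first fell and the second rose with torin1 in both lines. Capitals mark the reverse complement of TGATGNAA, which is how it lies on that strand. The regions are chr15:11399659-11399808 (minus strand) for *Tars*, chr6:55037851-55038000 (plus) for *Gars*, chr16:16302815-16302964 (plus) for *Yars2* and chr17:35667593-35667742 (minus) for *Vars2*.
Tars: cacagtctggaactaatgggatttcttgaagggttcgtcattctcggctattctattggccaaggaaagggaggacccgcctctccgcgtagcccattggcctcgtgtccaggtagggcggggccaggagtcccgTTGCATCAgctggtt
Gars: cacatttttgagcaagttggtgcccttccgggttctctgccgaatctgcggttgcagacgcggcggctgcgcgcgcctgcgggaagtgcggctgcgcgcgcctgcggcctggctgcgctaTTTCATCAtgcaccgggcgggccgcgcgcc
Yars2: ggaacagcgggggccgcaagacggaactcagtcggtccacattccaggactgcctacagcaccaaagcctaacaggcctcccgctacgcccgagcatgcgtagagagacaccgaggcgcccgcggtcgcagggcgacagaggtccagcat
Vars2: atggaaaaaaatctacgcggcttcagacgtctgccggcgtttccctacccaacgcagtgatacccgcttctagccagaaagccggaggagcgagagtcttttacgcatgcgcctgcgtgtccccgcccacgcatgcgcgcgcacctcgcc
Neither TGATGNAA nor CACGTG occurs in the stretches of *Yars2* and *Vars2* shown. A match describes the letters and is not a site of binding.

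Per length of transcript, cytosolic synthetases were expressed well above mitochondrial ones. In TPM (transcripts per 1000000, corrected for length), the means of the cytosolic genes in WT with DMSO ran from 15.9 for *Tarsl2*, a second gene for threonine, to 604.5 ± 85.7 (SD, n = 4) for *Nars* (asparagine), with a median of 179.5. Below *Nars* in that order came *Sars* (serine) at 481 ± 63.6, *Vars* (valine) at 376 ± 13.2, *Gars* at 362 ± 50.7 and *Kars* at 342 ± 20.3, and the ranges of neighbours in this series of 5 overlapped between *Nars* and *Sars* and between *Vars*, *Gars* and *Kars*. Mitochondrial means ran from 1.72 ± 0.15 for *Mars2* (methionine) to 61.8 ± 1.66 for *Tars2* (threonine), with a median of 19.3. In mean level, all cytosolic genes but *Tarsl2* were above all mitochondrial genes in this group.

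The summed level of the cytosolic set was lower with torin1 in both genotypes, and that of the mitochondrial set was not. The 21 cytosolic genes together were at 4788 ± 366 TPM in WT with DMSO and at 3159 ± 79.1 TPM with torin1 (both SD, n = 4), with library ranges of 4445 to 5288 and 3060 to 3230. In DKO the values were 4708 ± 366 and 3052 ± 73.9 TPM. The 17 mitochondrial genes were at 381 ± 6.20 and 472 ± 83.4 TPM in WT, and at 391 ± 7.13 with torin1 against 341 ± 3.06 with DMSO when *Lars2*, described below, was left out. In DKO they were at 333 ± 2.57 and 377 ± 9.39 TPM. The ratio of the 2 sums, with *Lars2* kept, was 12.6 ± 1.04 with DMSO and 6.84 ± 1.16 with torin1 in WT, and 14.1 ± 1.04 and 8.10 ± 0.37 in DKO. In WT with torin1 the ratio was 7.55, 7.15, 7.55 and 5.13 in replicates 1 to 4. Replicate 4 is the library with the outlying *Lars2* value, which lowers the mean and widens the SD. With MK-8722 the cytosolic sum was 4363 ± 437 TPM in WT and 4217 ± 603 TPM in DKO, within the range of the DMSO libraries for some libraries of each line, and the ratio was 11.0 ± 1.49 and 12.1 ± 1.69. These sums are descriptions of the set and were not tested. TPM lack the scaling between libraries that CPM have. In mean log2 CPM over the mitochondrial genes, relative to WT with DMSO, WT with torin1 was at 0.05 ± 0.09 with *Lars2* kept. DKO was at -0.08 ± 0.03 with DMSO and -0.08 ± 0.02 with torin1. The higher mitochondrial sums in TPM with torin1 thus did not appear in this measure in DKO.

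**Figure D1:**
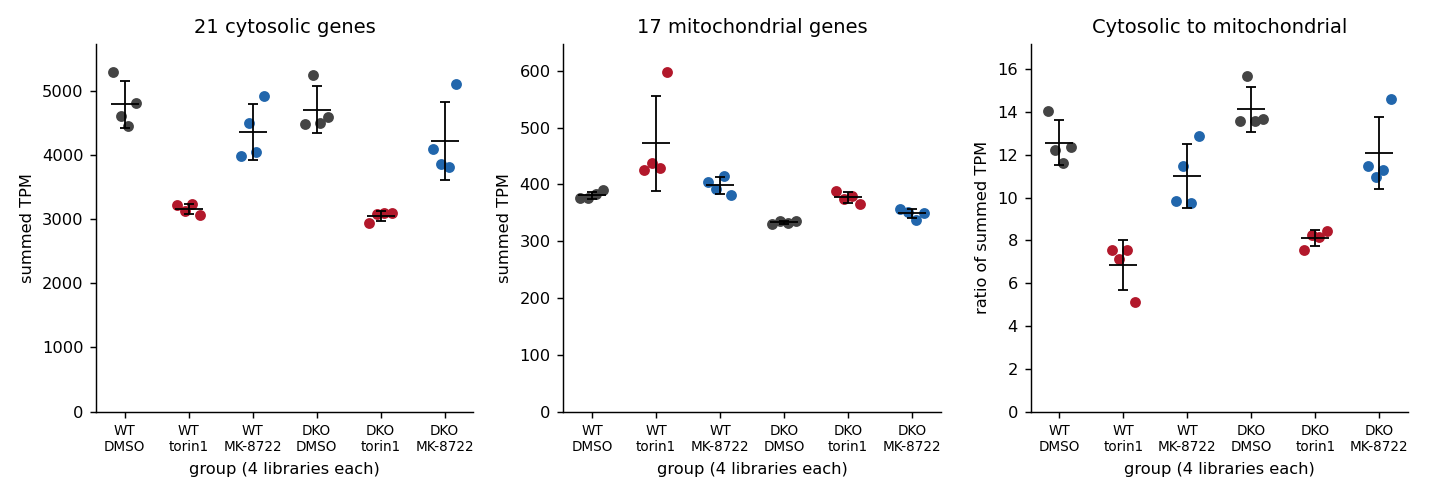
Summed TPM of the 21 cytosolic genes, of the 17 mitochondrial genes and their ratio, in each of the 24 libraries (points) with the mean and SD of each group (bars, n = 4). The torin1 libraries are the lowest for the cytosolic sum and the ratio in both genotypes, and a single WT torin1 library stands at 597 TPM for the mitochondrial sum.

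A gene was called where the Benjamini-Hochberg adjusted p of edgeR's quasi-likelihood test, over all 15401 genes, was under 0.05 and the change was at least 1.2-fold. With torin1 in WT, 15 of the 21 cytosolic genes fell, 2 rose and 4 were not called, and 5 of the 17 mitochondrial genes fell, 5 rose and 7 were not called. Over all genes tested 47.1% were called, 26.6% higher and 20.5% lower. The median log2 fold change was -0.69 for the cytosolic set, 0.07 for the mitochondrial set and 0.05 for all genes. In DKO, 15 cytosolic genes fell and 3 rose, and 5 mitochondrial genes fell and 6 rose, against 43.2% of all genes called (23% higher and 20.2% lower). The medians there were -0.80, 0.05 and 0.02. The genotypes have separate DMSO controls, and the 15 cytosolic genes that fell were the same 15 in both, as were the 5 mitochondrial ones. Libraries of the 2 treatments did not overlap for 20 of the 21 cytosolic genes in either genotype, against 54.1% of all genes in WT and 52.8% in DKO.

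The largest falls were in *Yars*, *Aars* and *Cars*, the cytosolic genes for tyrosine, alanine and cysteine. Values are in CPM, in the order of replicates 1 to 4. *Yars* was at 212, 192, 189 and 209.2 with DMSO and 65.3, 61.3, 67.5 and 59.8 with torin1 in WT, and at 162, 188, 172 and 158 and 51.1, 54.0, 56.4 and 57.3 in DKO. No torin1 library came near a DMSO library, and the log2 fold changes were -1.66 ± 0.09 (SE) in WT and -1.64 ± 0.09 in DKO (edgeR's quasi-likelihood test, adjusted p = 1.02e-12 and 1.56e-12). *Aars* was at 916, 892, 809.9 and 904 with DMSO and 359, 339, 351 and 341 with torin1 in WT, and at 889, 1093, 869 and 901 and 274, 289, 286 and 294 in DKO. DKO torin1 libraries were below all WT torin1 libraries although the DMSO libraries of the lines overlapped, and the log2 fold changes were -1.34 ± 0.10 and -1.72 ± 0.10 (edgeR, adjusted p = 1.30e-10 and 3.42e-12). *Cars* was at 226, 206, 205 and 229 with DMSO and 79.6, 71.2, 81.0 and 75.0 with torin1 in WT, and at 308, 363, 314 and 296 and 100.3, 102.2, 109 and 113 in DKO. It was higher in DKO under both conditions and fell by 1.498 ± 0.11 and 1.59 ± 0.11 (edgeR, adjusted p = 5.31e-11 and 2.30e-11).

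*Gars*, the single gene for glycine in both compartments, fell with this group. It was at 627, 485, 461 and 533 CPM with DMSO and 234, 214, 242 and 222 CPM with torin1 in WT, and at 497, 673, 514 and 515 and 219.1, 239, 239 and 239 CPM in DKO, with log2 fold changes of -1.21 ± 0.14 and -1.23 ± 0.14 (edgeR, adjusted p = 1.16e-07 and 9.42e-08). The other cytosolic genes that fell in WT, with their log2 fold changes, were *Tars* (-1.25), *Nars* (-1.24), *Wars* (-1.16), *Mars1* (-1.05), *Iars* (-0.97), *Lars* (-0.85), *Sars* (-0.69), *Hars* (-0.57), *Farsa* (-0.56), *Eprs* (-0.54) and *Farsb* (-0.49). In DKO these values were *Tars* (-1.23), *Nars* (-1.30), *Wars* (-1.32), *Mars1* (-0.96), *Iars* (-0.80), *Lars* (-0.90), *Sars* (-1.13), *Hars* (-0.59), *Farsa* (-0.50), *Eprs* (-0.34) and *Farsb* (-0.40). Genes for threonine, asparagine and tryptophan stood, with *Gars*, next to the leading 3 in both lines, and the phenylalanine subunits and *Eprs* fell least. The call of *Eprs* in DKO was lost without the DMSO replicate 2 library. *Hars* starts head to head with *Hars2* and *Mars1* overlaps *Ddit3*, so reads in the shared stretches are uncertain where counting did not use strand.

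*Wars* (tryptophan) is known to be induced by interferon as well. Its libraries were at 147, 111, 109.9 and 118 CPM with DMSO and 55.3, 56.1, 52.9 and 52.6 CPM with torin1 in WT, and at 100.3, 157, 108 and 124 and 49.2, 48.1, 50.6 and 48.0 CPM in DKO, and those of the 2 treatments did not overlap. A list of 10 interferon-stimulated genes summed to 1731 to 2074 CPM in the 3 WT libraries of passage 11, to 89.5 to 335 CPM in the other WT libraries and to 1653 to 3115 CPM in DKO. *Wars* in the WT passage 11 libraries (111, 55.3 and 97.5 CPM with DMSO, torin1 and MK-8722) stayed within the range of the other WT libraries under DMSO and MK-8722, and under torin1.

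**Figure D2:**
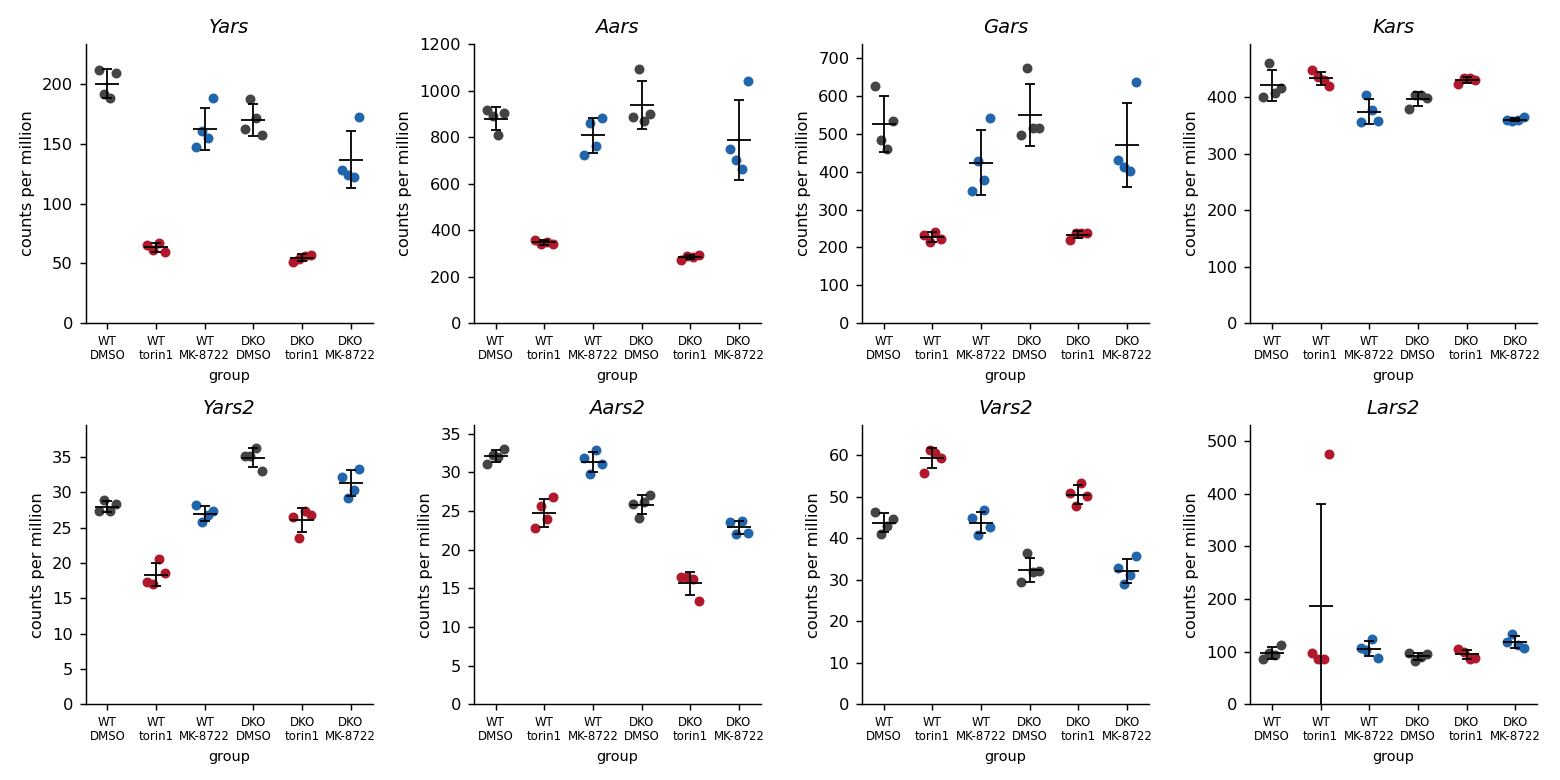
CPM of Yars, Aars, Gars, Kars, Yars2, Aars2, Vars2 and Lars2 in each library (points) with the mean and SD of each group (bars, n = 4). Yars, Aars and Gars fall with torin1 in both genotypes, Kars stays between 355 and 460.4 throughout, and Lars2 has 1 WT torin1 library at 476, so that the SD bar of that group runs below 0 and is cut there.

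Of the 21 cytosolic genes, 6 were not called lower with torin1 in either line. *Kars*, the other gene that serves both compartments, was at 401, 460.4, 407 and 416 CPM with DMSO and 448, 435, 429 and 420.3 CPM with torin1 in WT, and at 379, 404, 404 and 398 and 424, 434, 433 and 431 CPM in DKO. Its libraries overlapped in WT and stood just above the DMSO libraries in DKO, with log2 fold changes of 0.04 ± 0.04 and 0.12 ± 0.04, neither called. *Qars* was at 140.3, 135, 133 and 137 CPM with DMSO and 164, 172, 170.3 and 178 CPM with torin1 in WT, and at 175, 181, 177 and 176 and 219.3, 227, 221 and 222 CPM in DKO. It rose in both, by a log2 of 0.33 ± 0.03 and 0.33 ± 0.03 (edgeR, adjusted p = 8.70e-09 and 9.28e-09), and every torin1 library was above every DMSO library of its line. *Tarsl2* was at 28.8, 28.6, 28.9 and 28.1 CPM with DMSO and 38.9, 43.5, 40.3 and 44.1 CPM with torin1 in WT, and at 34.2, 32.6, 37.0 and 35.9 and 42.9, 44.1, 43.1 and 40.0 CPM in DKO. While *Tars*, the main gene for threonine, fell, *Tarsl2* rose by 0.54 ± 0.05 and 0.28 ± 0.05 (edgeR, adjusted p = 2.01e-09 and 2.73e-05), a call that in DKO was lost without the DMSO replicate 2 library. *Dars* (aspartate) was at 109.6, 119, 111 and 115 CPM with DMSO and 141, 143, 149 and 154 CPM with torin1 in DKO, where it rose by 0.37 ± 0.04 (edgeR, adjusted p = 8.90e-08). In WT its value was 0.18 ± 0.04, under the fold required. *Rars* (arginine) had values of -0.16 and -0.15, and *Vars* of -0.10 and 0.14, none called.

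Mitochondrial genes moved in both directions and less far. *Yars2* (tyrosine) was at 27.3, 28.9, 27.3 and 28.4 CPM with DMSO and 17.3, 16.97, 20.6 and 18.6 CPM with torin1 in WT, and at 35.2, 35.1, 36.3 and 33.0 and 26.5, 23.5, 27.3 and 26.8 CPM in DKO. It fell by 0.61 ± 0.06 and 0.42 ± 0.06 (edgeR, adjusted p = 6.53e-09 and 1.38e-06), with no overlap between treatments. *Aars2* (alanine) was at 31.1, 32.2, 32.0 and 33.1 CPM and 22.8, 25.7, 23.9 and 26.8 CPM in WT, and at 25.9, 24.1, 26.2 and 27.1 and 16.5, 16.5, 16.2 and 13.4 CPM in DKO, and fell by 0.37 ± 0.06 and 0.72 ± 0.06 (edgeR, adjusted p = 1.01e-05 and 9.71e-10). *Mars2* was at 17.9, 24.1, 22.04 and 22.7 CPM with DMSO and 14.6, 13.2, 15.5 and 15.3 CPM with torin1 in DKO, without overlap, and its log2 fold change was -0.56 ± 0.11 there (edgeR, adjusted p = 8.10e-05) and -0.32 ± 0.11 in WT. The other 2 that fell in both lines were *Cars2* (cysteine, -0.34 and -0.53) and *Nars2* (asparagine, -0.26 and -0.38), and the call of *Nars2* in WT was lost without the DMSO replicate 4 library. In these 5 pairs, the cytosolic gene for the same amino acid also fell, as did 15 of the 21 cytosolic genes in each line. Cytosolic genes fell beside mitochondrial genes that rose as well. In WT these include *Iars* (-0.97) beside *Iars2* (0.32) and *Eprs* (-0.54) beside *Pars2* (0.46).

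Of the mitochondrial genes that rose, *Vars2* (valine) was at 46.3, 41.0, 43.0 and 44.8 CPM with DMSO and 55.9, 61.4, 60.7 and 59.5 CPM with torin1 in WT, and at 29.5, 36.4, 31.8 and 32.1 and 51.0, 47.7, 53.2 and 50.2 CPM in DKO, a rise of 0.44 ± 0.06 and 0.64 ± 0.06 (edgeR, adjusted p = 2.26e-06 and 1.18e-08). All torin1 libraries were above all DMSO libraries of the same line. *Pars2* (proline), expressed at few counts, was at 7.75, 8.71, 9.29 and 8.02 CPM with DMSO and 12.1, 11.3, 13.2 and 12.9 CPM with torin1 in DKO, and rose by 0.46 ± 0.07 in WT and 0.55 ± 0.07 in DKO (edgeR, adjusted p = 3.97e-06 and 3.96e-07). *Iars2* (isoleucine) rose by 0.32 and 0.28, the latter not called without the DKO DMSO replicate 2 library. *Ears2* (0.39) and *Tars2* (0.40) were called higher in DKO, with values of 0.07 and 0.18 in WT. *Sars2*, *Hars2*, *Wars2*, *Rars2* and *Fars2* were called in neither line, with log2 fold changes in WT of 0.07, -0.12, -0.01, 0.11 and 0.11.

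*Lars2* (leucine) was called higher with torin1 in WT on the strength of 1 library. It was at 85.3, 97.8, 93.7 and 113 CPM with DMSO and 98.2, 86.5, 85.6 and 476 CPM with torin1 in WT, and at 98.0, 81.7, 89.3 and 95.0 and 105, 99.5, 86.7 and 88.0 CPM in DKO. The log2 fold change in WT was 0.93 ± 0.36 (edgeR, adjusted p = 0.0293), and without WT torin1 replicate 4, of passage 8, it was -0.12 (adjusted p = 0.376). The call was also lost without WT DMSO replicate 1, 2 or 3. In DKO it was 0.06 ± 0.36 and not called, with an SE from the same fit over all 24 libraries, the outlying one included. The same library held 6892 CPM (here of all counts in the library, without TMM) of CT010467.1, an annotated ribosomal RNA gene, against 727 to 1421 in the other 23, and 11.99 of *Rn7sk* against 0.51 to 2.35, and 15.7 of *Rn7s1* against 0.41 to 3.11, both small non-coding RNAs. The 2 main transcripts of *Lars2*, 1 of them annotated as protein coding and 1 as a target of nonsense-mediated decay, were at 208.5 and 298 CPM there and at 40.7 to 64.8 and 34.1 to 65.0 elsewhere. Of the 3870 and 3732 stretches of 25 bases in these transcripts, 0 occur in CT010467.1. This search took exact matches to that annotated gene alone. Other ribosomal RNA sequence was not searched, so it cannot tell where the reads on *Lars2* came from. The part of the non-coding RNA in the *Lars2* value was not tested.

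Whether the change with torin1 differed between DKO and WT was tested as the difference between the log2 fold changes of the genotypes. Of 38 members, 2 were called, against 11% of all genes (4.68% higher and 6.33% lower), and both are mitochondrial. *Aars2* fell further in DKO, with a difference of -0.35 ± 0.09 (edgeR, adjusted p = 0.00676). *Ears2*, at 15.2, 15.9, 15.5 and 16.4 CPM with DMSO and 17.4, 16.4, 15.3 and 17.2 CPM with torin1 in WT and at 16.9, 18.5, 17.5 and 17.97 and 22.4, 22.4, 23.9 and 24.2 CPM in DKO, rose more in DKO by 0.32 ± 0.07 (edgeR, adjusted p = 0.00471). The WT libraries overlapped between treatments and the DKO libraries did not. Of the cytosolic genes 0 were called in this fit, while *Dars* (difference 0.19), *Vars* (0.25) and *Tarsl2* (-0.26), like the mitochondrial *Tars2* (0.23), had adjusted p under 0.05 with a difference under 1.2-fold. In all, 11 members had an unadjusted p under 0.05. Among cytosolic genes that fell, the largest differences were those of *Sars* (-0.45 ± 0.18, adjusted p = 0.1004) and *Aars* (-0.37 ± 0.14, adjusted p = 0.0808), neither called by edgeR in this fit. With passage as a block within genotype both were called, as they were with only the groups compared, and in all *Aars* was called under 4 and *Sars* under 3 of 34 alternatives. The count was 5 without WT torin1 replicate 3 (passage 7), without all WT libraries of passage 7, and without the DKO libraries of passage 8.

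Set side by side for the same amino acid, the cytosolic gene was below its mitochondrial counterpart in log2 fold change with torin1 in 18 of 18 pairs in each genotype, with a median difference of -0.86 in WT and -0.90 in DKO. *Eprs* enters with both *Ears2* and *Pars2*, and *Fars2* with both *Farsa* and *Farsb*, so the pairs are not independent of each other. With MK-8722 it was below in 16 of 18, the exceptions being *Rars* and *Sars* in WT and *Mars1* and *Sars* in DKO, with medians of -0.17 and -0.18. No test was run on these pairs.

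Among cytosolic genes, those of the multisynthetase complex had a smaller median change with torin1. This grouping is from textbook knowledge and was made after the values were seen. Of its 8 synthetase genes (*Dars*, *Eprs*, *Iars*, *Kars*, *Lars*, *Mars1*, *Qars* and *Rars*), 4 fell, 1 rose and 3 were not called in WT, against 20.5% of all genes lower and 26.6% higher, with a median log2 fold change of -0.35, against 0.05 for all genes. Of the other 13, 11 fell, 1 rose and 1 was not called, with a median of -1.16. In DKO the medians were -0.24 and -1.23. The 3 scaffold genes moved apart from each other: *Aimp1* rose in both lines (0.27 and 0.27), *Aimp2* fell in both (-0.69 and -0.49), and *Eef1e1* fell in WT (-0.42) with a value of -0.26 in DKO that was not called.

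MK-8722 moved few members and by less. In WT, 5 cytosolic genes fell, namely *Tars* (-0.43), *Iars* (-0.33), *Yars* (-0.30), *Mars1* (-0.28) and *Cars* (-0.28), 1 mitochondrial gene fell (*Cars2*, -0.27) and 0 rose, against 16.1% of all genes called, 10.3% higher and 5.87% lower. At 15.8%, the share of members called was near that of all genes, and in DKO, described next, it was 13.2%. The medians in WT were -0.18 for the cytosolic set, -0.01 for the mitochondrial set and -0.01 for all genes. In DKO, 3 cytosolic genes fell, namely *Tars* (-0.38), *Yars* (-0.31) and *Hars* (-0.26), and of the mitochondrial genes 1 fell (*Mars2*, -0.44) and 1 rose, against 8.69% of all genes, 5.47% higher and 3.21% lower. The medians were -0.20, 0.04 and 0. Libraries did not overlap between MK-8722 and DMSO for 5 cytosolic and 5 mitochondrial genes in WT, against 29.8% of all genes, and for 3 and 6 in DKO, against 21.1%. With adjusted p under 0.05 and no requirement on the fold, 13 members passed in each line.

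*Tars* fell in both lines. It was at 486, 426, 399 and 451 CPM with DMSO and 282, 348, 295 and 389 CPM with MK-8722 in WT, and at 330.2, 430.1, 332 and 332 and 249.9, 238, 229.9 and 379 CPM in DKO, where the MK-8722 library of passage 8 stood above 3 of the 4 DMSO libraries. The log2 fold changes were -0.43 ± 0.13 and -0.38 ± 0.13 (edgeR, adjusted p = 0.0134 and 0.0399), against -1.25 and -1.23 with torin1, which shares the DMSO libraries. *Yars* was at 147, 160.5, 155 and 188 CPM with MK-8722 in WT and 129, 124, 122 and 173 CPM in DKO, and fell by 0.30 ± 0.09 and 0.31 ± 0.09 (edgeR, adjusted p = 0.0135 and 0.0166). *Iars* (isoleucine) was at 506, 420.4, 430.3 and 468 CPM with DMSO and 328, 352, 324 and 449.5 CPM with MK-8722 in WT, and fell by 0.33 ± 0.10 (edgeR, adjusted p = 0.0152), and its value in DKO was -0.21 ± 0.10. In WT the highest MK-8722 library, of passage 7, overlapped the DMSO libraries for *Iars* and not for *Yars* or *Tars*.

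*Hars* (histidine) was at 154, 169, 164 and 169.7 CPM with DMSO and 136, 132, 137 and 142 CPM with MK-8722 in DKO, with no overlap, and its value of -0.26 ± 0.04 (edgeR, adjusted p = 2.04e-05) lay at the fold required. In WT it was -0.22 ± 0.03 (edgeR, adjusted p = 5.16e-05), just under that fold. *Cars2* was at 26.1, 25.7, 24.9 and 27.5 CPM with DMSO and 22.4, 18.7, 20.9 and 24.5 CPM with MK-8722 in WT, without overlap (edgeR, adjusted p = 0.00462). *Mars2* was at 17.9, 24.1, 22.04 and 22.7 CPM with DMSO and 14.6, 13.4, 16.4 and 19.4 CPM with MK-8722 in DKO, where 1 library of each overlapped (edgeR, adjusted p = 0.00449).

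Of the cytosolic genes 0 rose with MK-8722, and their largest positive values were those of *Sars* (0.13 ± 0.13) and *Dars* (0.07 ± 0.04) in WT and of *Dars* (0.06 ± 0.04) and *Qars* (0.02 ± 0.03) in DKO. Among mitochondrial genes not called, *Pars2* had a value of 0.20 ± 0.07 in WT and *Lars2* of 0.38 ± 0.36 in DKO. The SE of *Lars2* comes from the fit over all 24 libraries, which includes the outlying WT torin1 library. Compared within passages in DKO, *Lars2* was higher with MK-8722 in all 4, by a log2 of 0.32 to 0.46. *Sars* was at 547, 425, 405 and 458 CPM with DMSO and 433, 525, 453 and 598 CPM with MK-8722 in WT, overlapping sets. *Pars2* was at 7.87, 9.12, 9.00 and 7.73 and 9.63, 10.00, 9.53 and 9.62 CPM in WT, where the MK-8722 libraries were all higher. *Dars* was at 91.7, 99.95, 92.1 and 98.2 and 98.1, 104, 101.5 and 96.5 CPM in WT, which overlapped. In DKO with MK-8722, *Dars* was at 123, 115, 113 and 121 CPM, *Qars* at 178, 179.9, 188 and 173 CPM and *Lars2* at 118, 134, 113 and 107 CPM, and only for *Lars2* were these all above the DMSO libraries. *Kars* was at 355, 403, 378 and 358 CPM with MK-8722 in WT and 359, 358, 359 and 365 CPM in DKO, with values of -0.17 ± 0.04 and -0.14 ± 0.04 that passed the adjusted p and not the fold.

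These MK-8722 counts depended on single libraries. In WT the count of 6 became 3 without MK-8722 replicate 3 and 2 without the libraries of passage 8, where the calls of *Tars* and *Yars* were lost. In DKO the count of 5 became 3 without DMSO replicate 2 or MK-8722 replicate 3, the latter the library with RIN 7.9. It became 2 without MK-8722 replicate 1 or 2, and 12 without MK-8722 replicate 4, the library of passage 8. Without all 3 DKO libraries of passage 8 it was 10. In WT, single libraries ended the calls of *Cars* (DMSO replicate 1, 2 or 4 or MK-8722 replicate 1, 2 or 3), *Iars* (DMSO replicate 1 or MK-8722 replicate 1 or 3) and *Cars2* (DMSO replicate 4 or MK-8722 replicate 2 or 3). In DKO they ended those of *Tars* (DMSO replicate 2 or 3 or MK-8722 replicate 1, 2 or 3), *Hars* (DMSO replicate 2, 3 or 4 or MK-8722 replicate 1 or 2) and *Yars* (DMSO replicate 2 or MK-8722 replicate 1, 2 or 3). *Cars* in DKO, at -0.29 ± 0.10 and not called in this fit (edgeR, adjusted p = 0.0502), was called lower under 11 of 26 alternatives, among them DESeq2, limma voom and each passage block, whereas the call of *Hars* in DKO was lost under 17 of 26, the same 4 included. Compared within each passage, MK-8722 was below DMSO in all 4 passages for 15 of 21 cytosolic genes in each genotype and above it in all 4 for 1, *Dars*. The same held for 4 lower and 5 higher of 17 mitochondrial genes in WT and for 6 and 6 in DKO. These counts within passages were not made over all genes, so no share of all genes stands beside them. For the difference in response between genotypes, 0 members were called by edgeR, 3 had an unadjusted p under 0.05, and DESeq2 and limma voom also called 0, against 5.49% of all genes called (1.42% higher and 4.08% lower). Without WT MK-8722 replicate 4 the count was 1.

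Between the lines under DMSO, 6 of the 38 members were higher in DKO and 9 lower, against 48.2% of all genes called (23.5% higher and 24.6% lower). Libraries of the lines did not overlap for 11 cytosolic and 10 mitochondrial genes, against 56.8% of all genes. Higher in DKO were, among others, *Mars2* (0.75), *Cars* (0.56), *Qars* (0.38), *Yars2* (0.32) and *Tarsl2* (0.29), and lower were *Sars2* (-0.69), *Eprs* (-0.63), *Wars2* (-0.57), *Iars2* (-0.55), *Vars2* (-0.43), *Tars2* (-0.33), *Hars* (-0.32), *Aars2* (-0.31) and *Tars* (-0.31). The call of *Tars* was lost without WT replicate 1 or 4 or DKO replicate 1, 3 or 4, and that of *Tarsl2* without DKO replicate 3. *Sars2* (serine) was at 21.4, 20.99, 21.7 and 21.4 CPM in WT and 13.3, 14.1, 12.4 and 13.2 CPM in DKO, a log2 difference of -0.69 ± 0.07 (edgeR, adjusted p = 4.31e-09). Its start lies opposite that of *Mrps12*. *Eprs* was at 490.5, 386, 396 and 419 CPM in WT and 242, 321, 259.7 and 272 CPM in DKO, a difference of -0.63 ± 0.10 (edgeR, adjusted p = 6.50e-06). *Mars2* was at 13.7, 11.3, 12.8 and 13.8 CPM in WT and at the DKO values given above, and was higher by 0.75 ± 0.11 (edgeR, adjusted p = 1.89e-06), as was *Cars* by 0.56 ± 0.11 (edgeR, adjusted p = 6.46e-05). In none of these 4 genes did the DMSO libraries of the lines overlap.

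With torin1, 9 members were higher in DKO and 10 lower, against 51.8% of all genes called (24% higher and 27.8% lower), and with MK-8722 5 were higher and 9 lower, against 48.7% (23.3% higher and 25.4% lower). Libraries of the lines did not overlap for 26 of the 38 members with torin1, against 60.3% of all genes, and for 19 with MK-8722, against 54.7%. Under all 3 treatments, *Eprs*, *Hars*, *Aars2*, *Iars2*, *Sars2* and *Wars2* were lower in DKO, and *Cars*, *Qars* and *Mars2* were higher. *Yars2* was called higher with DMSO and torin1 (0.32 and 0.50), *Tarsl2* with DMSO and MK-8722 (0.29 and 0.28), *Vars2* and *Tars2* were called lower with DMSO and MK-8722 (-0.43 and -0.45, -0.33 and -0.30), and *Sars* was called lower with torin1 and MK-8722 (-0.45 and -0.29). With torin1 alone, *Dars* (0.44), *Ears2* (0.49), *Vars* (0.36) and *Farsb* (0.31) were called higher, and *Lars2* (-0.98), *Fars2* (-0.31) and *Aars* (-0.28) lower. The *Lars2* value was 0.08 (edgeR, adjusted p = 0.539) without WT torin1 replicate 4, and its call was also lost without DKO torin1 replicate 3 or 4. With torin1, the call of *Aars* was lost without WT or DKO replicate 1 and that of *Fars2* without WT replicate 1. With MK-8722, that of *Sars* was lost without WT replicate 2 or 4 or DKO replicate 1, 2 or 3, and that of *Tarsl2* without WT replicate 4 or DKO replicate 1.

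**Figure D3:**
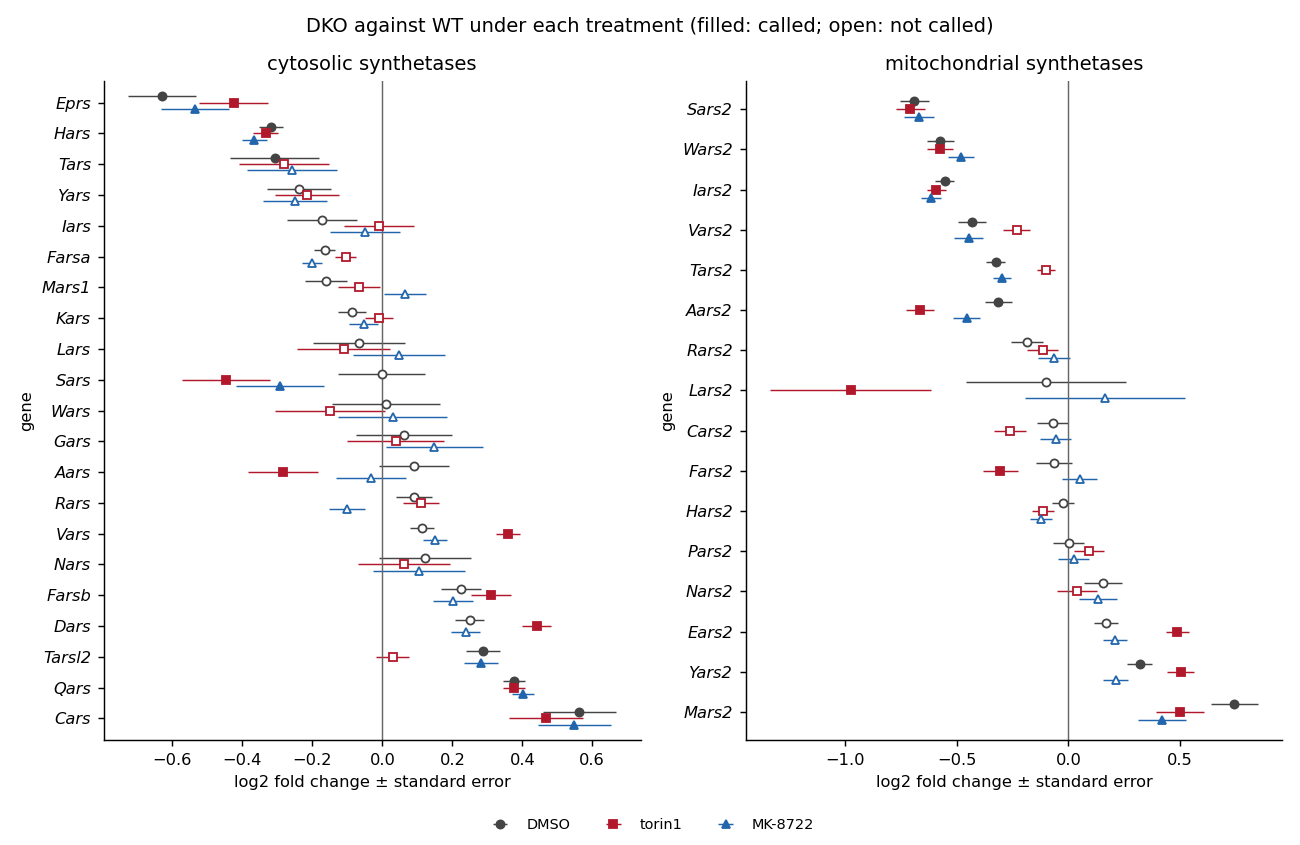
Log2 fold change of DKO against WT with its SE for members under DMSO, torin1 and MK-8722, with filled symbols for called genes. Sars2, Iars2, Wars2, Eprs, Aars2 and Hars are below 0 and Mars2, Cars and Qars above 0 under all 3 treatments.

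Most cytosolic synthetases were highest in the youngest cultures with DMSO and with MK-8722. Each group had 1 library of the earliest passage, 7 in WT and 8 in DKO. That library was the highest of its group for 16 of 21 cytosolic genes (76.2%) with DMSO in WT and in DKO, against 24.7% and 30.9% of all genes tested. With MK-8722 it was the highest for 16 (76.2%) in WT and 18 (85.7%) in DKO, against 26.6% and 29.8%. With torin1 the counts were 11 (52.4%) and 7 (33.3%), against 26.3% and 27.8%. For the 17 mitochondrial genes, the counts were 3, 2 and 3 in WT with DMSO, torin1 and MK-8722, and 7, 1 and 8 in DKO. *Nars*, the member with the highest mean TPM with DMSO in both lines, shows the pattern in order of passage. With DMSO it was at 748, 553, 626 and 563 CPM in WT (passages 7, 8, 9 and 11) and 816, 648, 642 and 605 CPM in DKO (passages 8, 9, 10 and 11). With MK-8722 it was at 661, 448, 452 and 519 and 731, 538, 489.7 and 476 CPM, and with torin1 at 273, 249.5, 248 and 283 and 288, 267, 274 and 271 CPM. The earliest library was the highest in each of these groups but the WT torin1 one. With 1 library per passage and treatment in a line, this was not tested, and passage cannot be told apart from the day or handling of a culture. Torin1 was below DMSO in all 4 passages for 17 cytosolic genes in WT and 16 in DKO, and above it in all 4 for 3 and 5, counts that were not made over all genes.

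**Figure D4:**
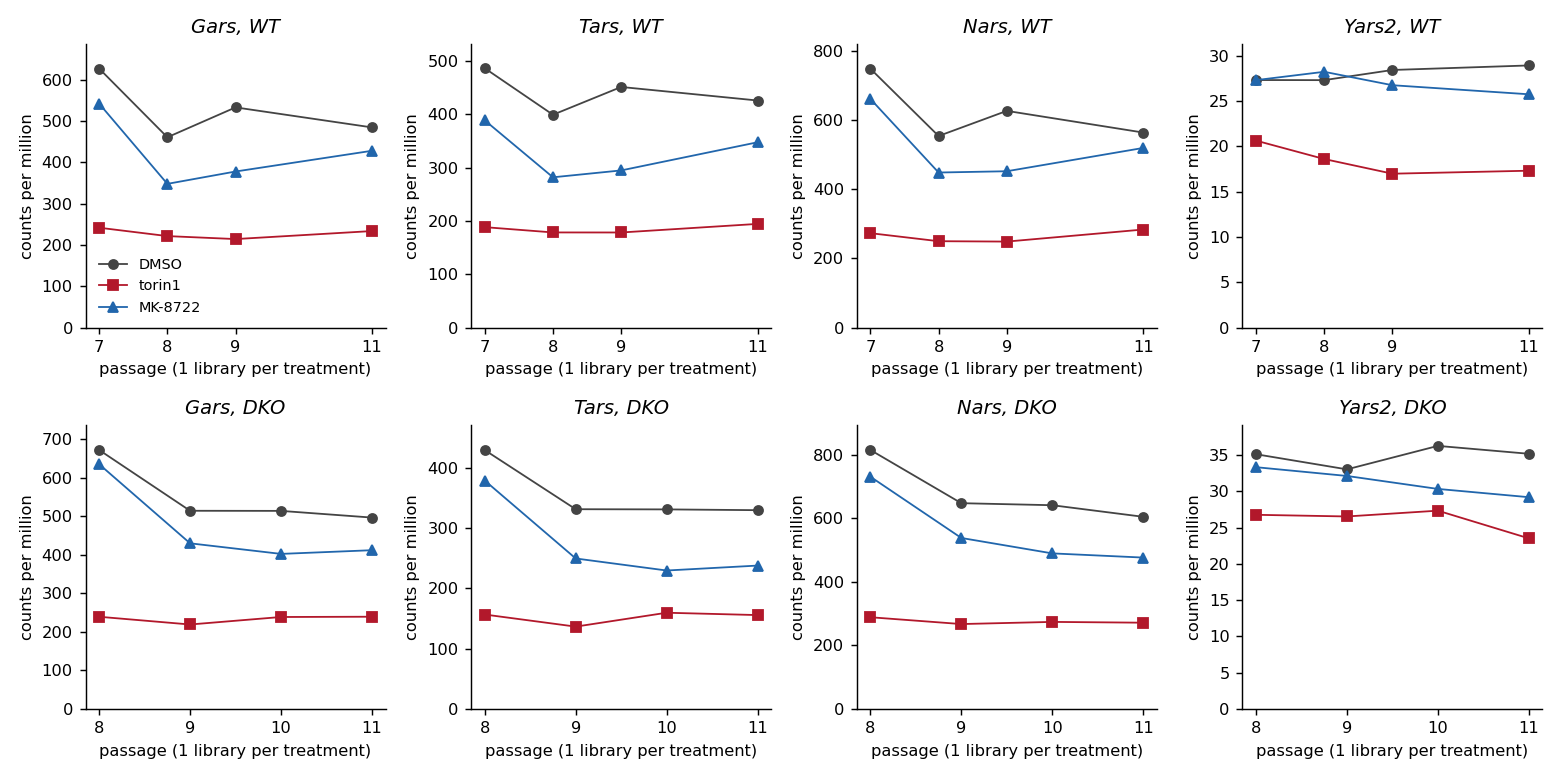
CPM of Gars, Tars, Nars and Yars2 in each library against the passage of the culture, for 3 treatments in WT and DKO. For Gars, Tars and Nars the DMSO and MK-8722 libraries of the earliest passage are the highest of their groups, whereas the torin1 libraries lie low at every passage.

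Leading transcripts held similar shares of these genes with and without torin1. Among the 15 cytosolic genes lowered by torin1, the share of TPM held by the leading transcript moved by -4.97 (*Farsa*) to 1.96 (*Yars*) percentage points in WT and by -1.10 (*Farsa*) to 3.92 (*Lars*) in DKO. The leading transcript of *Gars* held 95.7% with DMSO and 94.8% with torin1 in WT. *Kars*, for which alternative splicing is known to give the cytosolic and mitochondrial enzymes, was carried at 62.0% to 67.6% by the same leading transcript in all groups. That of *Cars2* held 39.8% with DMSO and 29.0% with torin1 in WT, and 45.6% and 33.7% in DKO. Transcript estimates from short reads are uncertain and were not tested.

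Other genes of tRNA charging and translation moved in both directions with torin1. Over all genes 47.1% were called in WT and 43.2% in DKO, and of these short lists 50% and 75% (transamidation and formylation), 75% and 75% (proofreading), 40% and 40% (elongation factors) and 40% and 50% (mitochondrial translation factors). With torin1 in WT, 1 of 4 genes of mitochondrial transamidation and formylation rose (*Gatb*, 0.65) and 1 fell (*Qrsl1*, -0.70), and in DKO *Gatc* fell as well (-0.44). These are the genes that, with *Ears2*, supply mitochondrial glutamine tRNA. Of 4 proofreading genes, *Dtd2* rose (0.48 in WT and 0.63 in DKO) and *Aarsd1* (-0.41 and -0.40) and *Prorsd1* (-0.32 and -0.47) fell. Of 5 cytosolic elongation factors, *Eef2* rose (0.35 and 0.38) and *Eef1d* fell (-0.27 and -0.31). Of 10 mitochondrial translation factors, 2 rose and 2 fell in WT and 2 rose and 3 fell in DKO, among them *Mtrf1* (0.54 and 0.40) and *Gfm1* (-0.50 and -0.43).

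Of 27 genes made up of *Atf4* and known targets of ATF4 other than synthetases, 26 fell and 0 rose with torin1 in WT, against 20.5% of all genes lower and 26.6% higher, with a median log2 fold change of -1.76, and 25 fell in DKO, against 20.2% of all genes, with a median of -1.89. *Atf4* itself fell by 1.44 ± 0.10 and 1.49 ± 0.10 (edgeR, adjusted p = 2.41e-11 and 1.71e-11). *Asns*, which makes asparagine, fell by 1.76 and 1.57 on the log2 scale, and *Psat1*, of serine synthesis, fell by 1.91 and 1.92. With MK-8722, 9 fell and 2 rose (*Cebpb*, 0.28, and *Ddit3*, 1.22) in WT, against 5.87% of all genes lower and 10.3% higher, with a median of -0.28. In DKO 2 fell (*Psat1* and *Sesn2*), which at 7.41% called is near the 8.69% of all genes, with a median of -0.17. The part of ATF4 in the synthetase values was not tested. With MK-8722, *Aimp2* of the scaffold fell in both lines (-0.39 and -0.32) and *Eef1e1* rose in WT (0.30). *Eef1d* fell (-0.32) and *Mtfmt*, which formylates the mitochondrial initiator tRNA, rose (0.27) in WT, and *Mtrf1l* fell in DKO (-0.42). The shares of these short lists called in WT and DKO were 66.7% and 33.3% (3 scaffold genes), 25% and 0% (transamidation and formylation), 0% and 0% (proofreading), 20% and 0% (elongation factors) and 0% and 10% (mitochondrial translation factors). Over all genes they were 16.1% and 8.69%.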

How the data were processed

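The authors aligned and quantified 52-bp paired-end reads of polyadenylated RNA with STAR and salmon (versions not given in the sources used here) on GRCm38, with unique molecular identifiers to remove duplicates. They deposited estimated counts per gene for 24 libraries, not normalized, and salmon TPM per transcript. Expected counts were rounded to whole numbers (91.36% lay within 0.01 of one), filtered with filterByExpr (minimum count 10), scaled by TMM (factors 0.95 to 1.08) and fitted with edgeR 4.0.16 (quasi-likelihood, 18 residual degrees of freedom, R 4.3.3) over 6 groups. Calls needed a Benjamini-Hochberg adjusted p under 0.05 over all genes and a fold of 1.2, in 9 comparisons. CPM are relative to the counts of tested genes after TMM. TPM was summed per gene. DESeq2 1.42.0 and limma 3.58.1 were alternatives. The biological coefficient of variation was 10.7%. No 2 replicates agreed within counting noise (chi-square per degree of freedom 3.8 to 39.2). Samples were grouped by genotype and treatment as labelled, with a single batch label. Members, gene lists and comparisons were chosen with earlier results of these data known. Values by library are given for the called members with the largest falls (3 cytosolic and 2 mitochondrial) and the members with the largest rises (2 of each) per drug comparison, for the 2 largest falls and rises between the lines under DMSO, for called differences in response, and for Gars, Kars, Qars, Tarsl2 and Wars. Nars and the grouping by multisynthetase complex were added after values were seen. On counts simulated for torin1 against DMSO in WT over 15025 genes, 42 of 50 genes were recovered at a log2 change of -1.5, 29 at -0.5, 27 at 0.5 and 48 at 1.5, and 3 unchanged genes were called. All other genes had equal means in all groups there, and libraries of a passage shared nothing. In the data 47.1% of genes were called in this comparison, so the simulation gives no rate of false calls for it. Protein sequences were not analysed here, and 1 member's own values and 1 promoter sequence are not reported here.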

Additional observations from a re-analysis of the deposited data

Results flagged for a closer look

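In groups of 4 libraries, a library was taken as standing apart where its gap to the nearest other, divided by the range of the group, was above Dixon's 95% critical value. This held in 15 of 228 groups of member and condition (6.58%), and chance alone gives about 1 in 20. Of the 15, 9 were in the earliest passage of the genotype.

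In DKO with DMSO, the passage 8 library was the highest for Aars (1093 CPM, others 869 to 901), Gars (673, others 497 to 515), Iars (448, others 387 to 395), Sars (573, others 404 to 428) and Tars (430.1, others 330.2 to 332), and the passage 11 library was the lowest for Hars2 (21.97, others 24.3 to 24.8). In DKO with MK-8722, the passage 8 library was the highest for Gars (636, others 403 to 430.1), Tars (379, others 229.9 to 249.9) and Yars (173, others 122 to 129). In DKO with torin1, low libraries were found for Aars2 (13.4, passage 8, others 16.2 to 16.5), Farsa (81.5, passage 11, others 84.3 to 84.4) and, all at passage 9, Gars (219.1, others 238.6 to 239.3), Lars (159, others 168 to 170.2) and Tars (137, others 156 to 159.7). In WT with torin1, Lars2 was at 476 CPM at passage 8 and 85.6 to 98.2 in the others.

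The change with torin1 differed between DKO and WT at an adjusted p under 0.05 (edgeR's quasi-likelihood test of the difference) for 6 members. The differences in log2 fold change, DKO minus WT, were -0.35 for Aars2, -0.26 for Tarsl2, 0.32 for Ears2, 0.25 for Vars, 0.23 for Tars2 and 0.19 for Dars, and those of Aars2 and Ears2 were also at least 1.2-fold.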

How the results depend on the processing

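The lower cytosolic levels with torin1 kept their direction under all alternatives run. The median log2 fold change of the cytosolic set in WT was -0.60 with library size alone and -0.78 without WT passage 11. The mitochondrial medians stayed near 0, at 0.0837 in DKO with library size alone for torin1, and at 0.0325 in WT and 2e-04 in DKO with an offset for transcript length for MK-8722. Counts resting on small changes moved most. With adjusted p alone, members called were 13 for MK-8722 in WT and 13 in DKO, 23 for DKO against WT with DMSO, 22 with MK-8722 and 6 for the difference in torin1 response. Tested against a fold of 1.2, they were 0, 0 and 9 in the first 3 and 0 in the torin1 response. With MK-8722, 2 were called in WT without passage 8, 3 in DKO with only the groups compared and 10 in DKO without passage 8. The torin1 response had 4 with library size alone, 5 with only the groups compared, 4 with passage as a block within genotype, 5 without DKO passage 8 and 5 without WT passage 7, a choice made, as was leaving out WT passage 8, after seeing the data. The MK-8722 response had 1 with the length offset and 1 with either passage block. Lars2 reversed without WT torin1 replicate 4, to -0.12 (adjusted p = 0.376) against DMSO and 0.0792 (adjusted p = 0.539) for DKO against WT, and without WT passage 8, to -0.14 (adjusted p = 0.361) and 0.0794 (adjusted p = 0.558). The cause of the other moves was not tested.

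Leaving out 1 library at a time, members called were 26 to 27 (WT) and 26 to 29 (DKO) with torin1, 3 to 9 and 2 to 12 with MK-8722, 13 to 16, 18 to 19 and 12 to 16 between the lines with DMSO, torin1 and MK-8722, and 2 to 5 and 0 to 1 for the torin1 and MK-8722 responses. Cytosolic medians ran from -0.75 to -0.60 and from -0.83 to -0.76 with torin1, and from -0.21 to -0.16 and from -0.26 to -0.11 with MK-8722, in WT and DKO. Lars2 in DKO against WT with torin1 ran from -1.2149 to 0.0792. Mitochondrial medians ran from 0.03 to 0.09 and from 0.0039 to 0.0948 with torin1, and from -0.03 to 0.0026 and from 0.0101 to 0.0534 with MK-8722. Library size alone moved the median of all genes by over 0.1 in 1 comparison, DKO against WT with torin1 (-0.13).

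Replicate numbers did not pair libraries: 7 of 24 correlations of same-numbered libraries within a genotype were over 0.1 (-0.41 to 0.66), against 17 of 24 for the same passage. The main fit had no term for passage, so its p-values leave the pairing by passage out. With the replicate block, members called were 26, 29, 6 and 5 for torin1 and MK-8722 (WT and DKO each), 15, 20 and 14 between the lines, and 2 and 0 for the responses. That block follows replicate number, so it does not take the pairing by passage into account. With passage as a block within genotype, the torin1 and MK-8722 responses had 4 and 1 members called.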
